A study of Mus musculus with 8 samples.

Results

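The proteasome is the protease complex that degrades ubiquitin-tagged proteins. Its genes were taken here as every symbol made of Psm, a letter from a to g and a number, which gave 48 genes of the 24411 in the count tables. The rule takes in the 14 constitutive genes of the barrel-shaped 20S core, 17 genes of the 19S regulatory particle that caps it, the 3 catalytic genes of the immunoproteasome, 4 genes of alternative activators, 1 inhibitor gene, 7 assembly chaperone genes and 2 genes of tissue-restricted core paralogs. Of the 48 genes, 47 passed the filter on low counts and were tested. Psmb11, the core subunit of thymic cortical epithelium, had 1 read in control 3 and 0 reads in the other hearts, and was not tested. The 48 genes together took 0.467% of all reads assigned to genes.

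RNA was sequenced from the hearts of 8 C57BL/6 mice, all taken 1 week after transverse aortic constriction, a narrowing of the aorta that loads the left ventricle with pressure. The first group comprised 4 cardiac-specific YY1 KO mice, in which the gene of the transcription factor Yin-Yang 1 had been targeted in the heart. The controls were 4 MerCreMer mice, which carry the tamoxifen-inducible form of Cre recombinase. The promoter of the transgene, the genotype of the Yy1 locus in the controls, the ages and any tamoxifen schedule are not stated in the sources used here, and unoperated hearts were not analysed here. Libraries were made from whole heart, so a level reflects every cell type of the organ, and fewer cells of a type cannot be told apart from less RNA per cell.

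Cells take apart most short-lived, damaged and regulatory proteins in the 26S proteasome. Its 20S core holds 2 rings of alpha subunits, which form the gate, around 2 rings of beta subunits, of which Psmb5, Psmb6 and Psmb7 carry the proteolytic sites. The 19S particle binds ubiquitin chains, removes them, unfolds the substrate with a ring of ATPases and feeds it into the core. Under interferon, Psmb8, Psmb9 and Psmb10 replace the catalytic beta subunits in newly built cores, and the activator PA28, made from Psme1 and Psme2, is induced, which together favour the production of peptides for MHC class I. When proteasomes are inhibited, the transcription factor NRF1 (gene Nfe2l1) raises the constitutive genes together. Cardiomyocytes, which cannot dilute damaged proteins by dividing, depend on this system for the turnover of sarcomere proteins.

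The 8 libraries held 23869112 to 23966753 reads, of which 14582605 to 16000455 were assigned to genes. Yy1 itself (mm10 chromosome 12, 108792973 to 108820148) stood at 18.04, 22.34, 19.94 and 23.82 CPM (counts scaled to library size by TMM) in the YY1 KO hearts, against 33.81, 37.16, 36.32 and 37.12 CPM in the controls. That is 58.3% of the control mean, with no overlap between the groups and an edgeR adjusted p of 0.000769. The series text describes all mice as male, whereas YY1 KO 1 and 4 and control 1 and 4 had 138 to 219 CPM of Xist with at most 0.134 CPM of Y-linked genes, and the other 4 hearts had 162 to 196 CPM of Y-linked genes with at most 0.385 CPM of Xist. Each genotype thus had 2 hearts of each kind, and results are given within each kind where they rest on it. The Xist and Y-linked CPM were scaled to the reads assigned to genes alone, without TMM. Cardiomyocyte markers summed to 56490 to 81070 CPM in YY1 KO hearts, against 93410 to 123300 CPM in controls, with 4 of 10 lower (Myl2, Myl3, Actc1 and Mb). Endothelial markers summed to 1139 to 1353 CPM in YY1 KO hearts, against 1500 to 2008 CPM in controls, with 6 of 10 lower and 1 higher. Smooth muscle and pericyte markers summed to 728 to 912 CPM in YY1 KO hearts, against 1030 to 1319 CPM in controls, with 3 of 8 lower and 1 higher. Fibroblast markers overlapped, at 4016 to 7429 CPM in YY1 KO hearts against 3002 to 5765 CPM in controls, with 1 of 10 higher. Of all genes tested by edgeR, 17.3% were called lower and 21.6% higher (adjusted p under 0.05). No marker was at 0 in all libraries. The part of these shifts in the proteasome results was not tested.

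Among the 47 proteasome genes tested, 10 rose and 6 fell in YY1 KO hearts relative to controls, and 31 were not called (threshold 0.05 on the p-value of edgeR's quasi-likelihood test, adjusted by Benjamini-Hochberg over all 13506 genes). Of all genes tested, 21.6% were called higher, 17.3% lower and 38.9% in either direction, so the share of proteasome genes called was near the background. With RLE size factors the proteasome counts were 8 higher and 8 lower, where 19.6% and 18.7% of all genes were. With library size alone they were 22 higher and 4 lower, where 24.7% and 14.1% of all genes were. The balance of directions thus depended on the scaling, and with library size alone the higher count stood above its background share. The changes were small: 2 genes, Psme1 and Psma8, were called and differed at least 2-fold, where 10.9% of all genes did. Psma8 had few reads and passed the low-count filter through the controls, where it was higher. The median absolute log2 fold change was 0.23 over the proteasome genes and 0.35 over all genes, and the median standard error was 0.096 and 0.153. Log2 fold changes (YY1 KO minus control) were above 0 for 33 of the 47 genes, with a median of 0.15, where the median of all genes was 0.01. That number was 33 with RLE or upper quartile scaling and 36 with library size alone, where the median of all genes moved to 0.07. All YY1 KO hearts lay above all controls for 19 genes and below them for 7, where 21.8% and 16.5% of all genes did so. The 7 genes, like the 6 called lower, include Psma8.

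**Figure D1:**
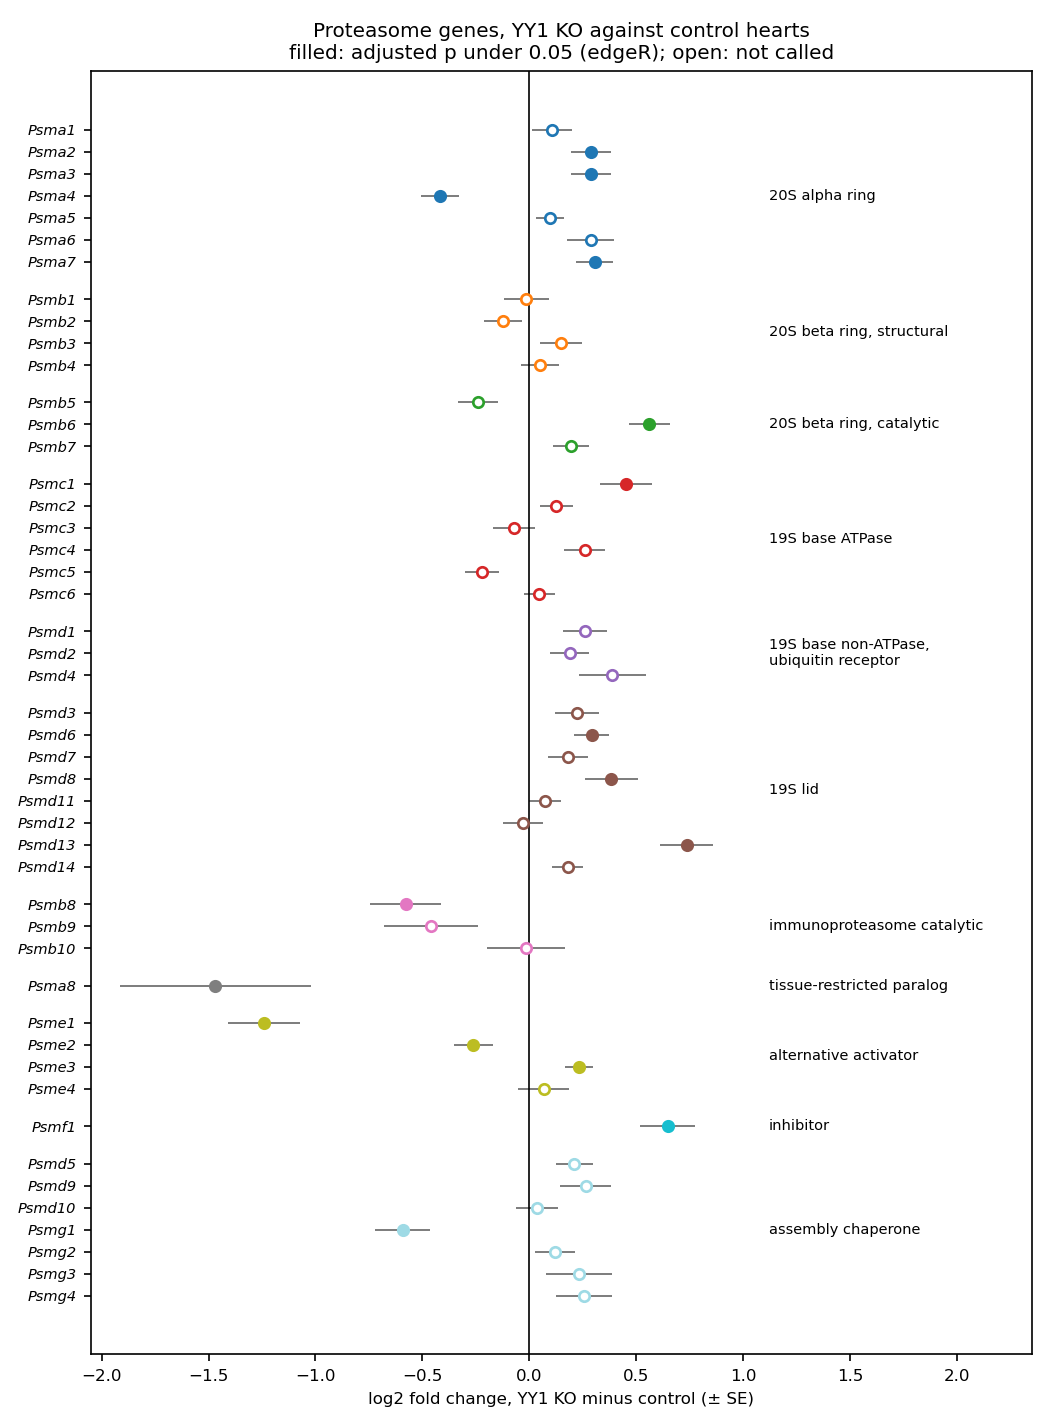
Log2 fold changes (YY1 KO minus control, ± SE) of the 47 tested proteasome genes, ordered by role, with filled points for an adjusted p under 0.05 in edgeR. Most 20S and 19S genes sit between 0 and 0.5, Psmd13 reaches 0.74, and Psme1 and Psma8 lie below −1.

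Of the 4 activator genes, 2 were lower and 1 higher, where 17.3% and 21.6% of all genes were. Psme1 had the largest fold change of the well-expressed proteasome genes. This gene encodes the alpha subunit of PA28, the ring that opens the core without ATP or ubiquitin (mm10 chromosome 14, 55578123 to 55581529, plus strand). It had 48.97, 45.37, 44.24 and 71.64 CPM in YY1 KO hearts, against 146.8, 126.9, 109.1 and 114.6 CPM in controls. Every YY1 KO heart lay below every control, and YY1 KO 4 was the highest of its group. The YY1 KO mean was 42.3% of the control mean, with a log2 fold change of −1.24 ± 0.17 (SE, n = 4 hearts per group, edgeR adjusted p = 0.00094). It was −1.12 within the Xist-positive hearts (edgeR adjusted p = 0.108) and −1.42 within the Y-positive hearts (edgeR adjusted p = 0.00426). Emc9 overlaps Psme1 on the other strand, and with counts of the gene's own strand the log2 fold change was −1.24.

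Psme2, the beta subunit that shares the PA28 ring with the Psme1 product, lies next to it on the other strand (mm10 chromosome 14, 55587441 to 55591113). It had 54.43, 53.79, 60.55 and 67.52 CPM in YY1 KO hearts, against 69.58, 70.98, 75.43 and 67.47 CPM in controls. The groups overlapped, since YY1 KO 4 and control 4 had nearly the same level. The log2 fold change was −0.26 ± 0.09 (SE, edgeR adjusted p = 0.0466), and the call was lost without any of YY1 KO 1, 2 and 3 or of the 4 controls (edgeR adjusted p 0.0568 to 0.118), with a sex term (0.0644), with library size alone (0.154) and with no filter (0.0589). The replicate block, which adds mouse number to the model, lost the call too (edgeR adjusted p = 0.0924). Within the Xist-positive hearts the log2 fold change was −0.17 (edgeR adjusted p = 0.537) and within the Y-positive hearts −0.38 (edgeR adjusted p = 0.0792), so the call held in 6 of 19 alternatives. The ratio of the 2 partners was taken in each heart, since it does not depend on scaling. Per heart the ratio of Psme1 to Psme2 CPM was 0.900, 0.843, 0.731 and 1.06 in YY1 KO hearts, against 2.11, 1.79, 1.45 and 1.70 in controls. All YY1 KO ratios were below all control ratios. The mean log2 ratio was −0.19 ± 0.22 in YY1 KO hearts and 0.80 ± 0.22 in controls (SD, n = 4 each), a difference of −0.99 with an exact two-sided permutation p of 0.0286, the smallest that 70 assignments allow, and 0.0571 after adjustment over the 4 ratios tested here.

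The other 2 activator genes were not lower. Psme3 encodes the nuclear activator PA28 gamma, which binds the core as a ring of its own (mm10 chromosome 11, 101316213 to 101323537). It had 108.1, 116.8, 113.3 and 112.0 CPM in YY1 KO hearts, against 94.44, 97.40, 95.64 and 95.74 CPM in controls. The groups did not overlap and each was tight. The log2 fold change was 0.23 ± 0.07 (SE, edgeR adjusted p = 0.0224). The call was lost without YY1 KO 3 or any of the controls (edgeR adjusted p 0.0513 to 0.0623), with no filter (0.0506) and with the replicate block (0.0784). Within the Xist-positive hearts the log2 fold change was 0.21 and within the Y-positive hearts 0.23, without a call in either (edgeR adjusted p = 0.357 and 0.203). Psme4, the gene of the monomeric activator PA200, overlapped between the groups, at 344.8 ± 51.9 CPM in YY1 KO hearts and 328.9 ± 17.9 CPM in controls (SD, n = 4 each, edgeR adjusted p = 0.674). Per kilobase of the principal transcript, mean levels in YY1 KO hearts were 61.4 CPM for Psme2, 53.1 for Psme4, 47.3 for Psme1 and 42.3 for Psme3. In controls they were 112 CPM per kilobase for Psme1, 73.7 for Psme2, 50.7 for Psme4 and 36.0 for Psme3. Psme1 was thus the highest of the 4 activator genes in controls and the third in YY1 KO hearts, where its level of 47.3 ± 11.6 CPM per kilobase lay within 1 SD of the means of Psme4 and Psme3.

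**Figure D2:**
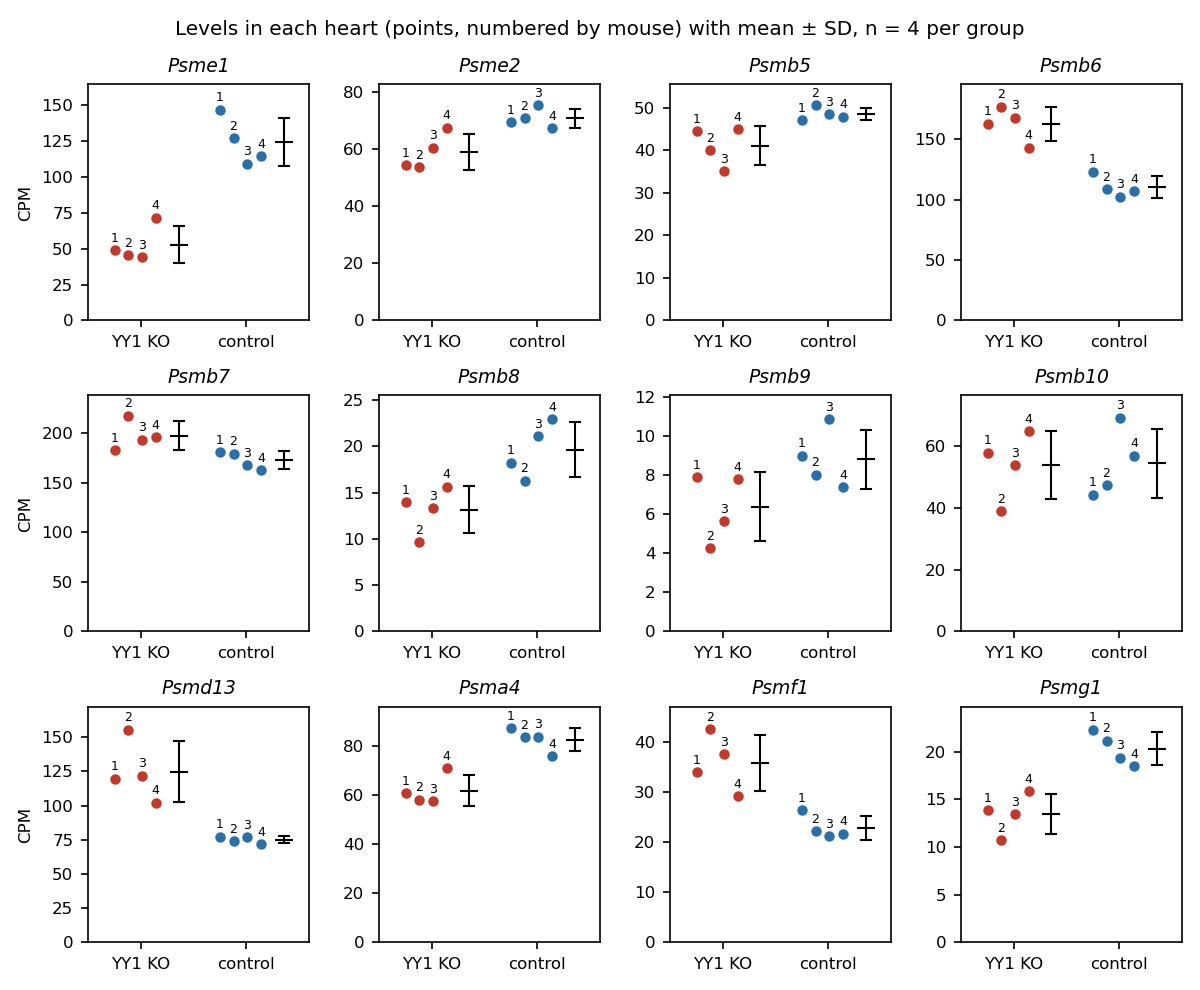
TMM-scaled CPM in each heart (points, numbered by mouse) for 12 proteasome genes, with the mean ± SD of 4 hearts per group, YY1 KO on the left and control on the right. The groups separate for Psme1, Psmb5, Psmb6, Psmb7, Psmb8, Psmd13, Psma4, Psmf1 and Psmg1 and overlap for Psme2, Psmb9 and Psmb10.

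The promoter sequence of Psme1 is shown because this gene differed most in level among the well-expressed genes of the set. The 300 bases are those of RefSeq on GRCm38.p6, chr14:55578244-55578543, plus strand, 250 before the start of the transcript and 50 from it on. Capitals mark the match to GAAANNGAA, the core letters of interferon-responsive elements, which lies on the opposite strand and begins at base 11 of the transcript.

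Psme1 promoter: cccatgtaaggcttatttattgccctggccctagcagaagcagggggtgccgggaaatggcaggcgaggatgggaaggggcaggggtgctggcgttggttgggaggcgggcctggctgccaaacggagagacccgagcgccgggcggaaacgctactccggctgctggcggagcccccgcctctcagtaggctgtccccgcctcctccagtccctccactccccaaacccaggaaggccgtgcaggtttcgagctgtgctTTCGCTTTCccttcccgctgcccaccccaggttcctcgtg

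Searched on both strands, GAAANNGAA occurred in 7 of the 40 proteasome promoters in the RefSeq table (17.5%) and in 9.76% of the promoters of all 27025 symbols. The other 6 were those of Psmb3, Psmb4, Psmc2, Psmd4, Psmd9 and Psmg4, none of which was called in either direction, where 38.9% of all genes were. This motif was added after the levels of Psme1 had been seen.

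The 3 constitutive catalytic subunits had log2 fold changes of both signs, and 1 was called, where 38.9% of all genes were. Psmb6, the caspase-like subunit beta 1 (mm10 chromosome 11, 70525367 to 70527858, plus strand), had 162.8, 177.0, 167.7 and 142.9 CPM in YY1 KO hearts, against 123.2, 108.7, 102.3 and 106.7 CPM in controls. The groups did not overlap, and the log2 fold change was 0.56 ± 0.10 (SE, edgeR adjusted p = 0.00232). It was 0.41 within the Xist-positive hearts (edgeR adjusted p = 0.195) and 0.69 within the Y-positive hearts (edgeR adjusted p = 0.0169). Psmb7, the trypsin-like subunit beta 2 (mm10 chromosome 2, 38588036 to 38644087), had 183.2, 217.7, 193.5 and 196.1 CPM in YY1 KO hearts, against 181.1, 179.3, 167.7 and 163.0 CPM in controls. The YY1 KO values were all above the control values, YY1 KO 1 by a narrow margin, and the gene was not called (log2 fold change 0.19 ± 0.09, edgeR adjusted p = 0.101), except with library size alone (edgeR adjusted p = 0.0179). Psmb5, the chymotrypsin-like subunit beta 5 and main target of bortezomib (mm10 chromosome 14, 54614119 to 54618022, minus strand), had 44.46, 39.93, 35.02 and 44.89 CPM in YY1 KO hearts, against 47.12, 50.55, 48.52 and 47.87 CPM in controls. Each YY1 KO heart was below each control, with a log2 fold change of −0.24 ± 0.09 that missed the threshold (edgeR adjusted p = 0.0676). It passed without YY1 KO 4 and in RLE scaling and DESeq2, with adjusted p values down to 0.0316. Its log2 fold change was −0.09 within the Xist-positive hearts and −0.42 within the Y-positive hearts (edgeR adjusted p = 0.686 and 0.0651). It was −0.17 without YY1 KO 3 and −0.18 with library size alone (edgeR adjusted p = 0.162 and 0.234). Per kilobase of the principal transcript, the mean levels in YY1 KO hearts were 204 CPM for Psmb6, 170 for Psmb7 and 45.7 for Psmb5, and in controls 138, 149 and 54.0 CPM for the same genes.

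The promoters of Psmb5 and Psmb6 are shown because both hold letters of the YY1 motif and of the antioxidant element that NRF1 binds, while the log2 fold changes of the genes had opposite signs. Capitals mark AANATGGC, the core letters of the YY1 motif, and TGACNNNGC, those of the antioxidant element. The sequences are from RefSeq on GRCm38.p6, with the same 300-base window, written along the gene's strand. Psmb5 lies at chr14:54617946-54618245 on the minus strand and Psmb6 at chr11:70525107-70525406 on the plus strand.

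Psmb5 promoter: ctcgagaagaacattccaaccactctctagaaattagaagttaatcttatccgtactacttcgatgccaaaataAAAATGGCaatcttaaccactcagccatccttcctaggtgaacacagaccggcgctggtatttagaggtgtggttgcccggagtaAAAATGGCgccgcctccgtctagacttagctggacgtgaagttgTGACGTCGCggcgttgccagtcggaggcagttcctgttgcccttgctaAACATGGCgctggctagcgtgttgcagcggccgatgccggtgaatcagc

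Psmb6 promoter: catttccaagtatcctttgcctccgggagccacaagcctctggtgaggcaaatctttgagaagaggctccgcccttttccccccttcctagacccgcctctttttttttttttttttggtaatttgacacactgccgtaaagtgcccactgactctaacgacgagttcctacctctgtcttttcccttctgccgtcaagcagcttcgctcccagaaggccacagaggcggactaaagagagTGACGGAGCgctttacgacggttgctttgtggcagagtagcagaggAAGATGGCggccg

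Positions are counted with the first base of the transcript as 1. Psmb5 held 3 matches to the YY1 letters, beginning at −176, −91 and 2, and 1 match to the antioxidant letters at −47. In Psmb6 the antioxidant letters began at −9 and the YY1 letters at 38. Searched on both strands, the YY1 letters occurred in 6 of the 40 proteasome promoters (15%), against 6.96% of all promoters in the table. The members with them were Psma2, Psma4, Psmb5, Psmb6, Psmc5 and Psmd8, of which Psma2, Psmb6 and Psmd8 were called higher, Psma4 lower, and Psmb5 and Psmc5 in neither direction. Of all genes tested, 21.6% were called higher and 17.3% lower. The Psma2 and Psmd8 calls held in 7 and 10 of 19 alternatives. The letters contain ATG followed by GC, so a match downstream of the start can also be the start codon of a protein. Of the 6 genes, Psmb5, Psmb6, Psma2 and Psmc5 held such a downstream match, and whether these are start codons was not checked. The antioxidant letters occurred in 6 of 40 proteasome promoters (15%, in Psmb5, Psmb6, Psmc6, Psmd9, Psmd12 and Psme4) and in 13.99% of all. Of these 6 genes, Psmb6 was called, where 38.9% of all genes were. The table held no entry for Psma8, Psmb1, Psmb2, Psmb7, Psmc3, Psmd3, Psmd7 and Psmg2. The remaining stretches with the YY1 letters, at most 60 bases each, are shown to set the match in context, in capitals along the gene's strand. They are from Psma4 at chr9:54950786-54950845 (plus strand), Psmd8 at chr7:29180647-29180706 (minus strand), Psma2 at chr13:14613246-14613291 (plus strand) and Psmc5 at chr11:106256162-106256221 (plus strand).

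Psma4: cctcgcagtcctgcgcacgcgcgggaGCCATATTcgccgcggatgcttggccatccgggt

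Psmd8: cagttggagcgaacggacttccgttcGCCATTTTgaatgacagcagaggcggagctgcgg

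Psma2: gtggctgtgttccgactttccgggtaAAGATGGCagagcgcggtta

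Psmc5: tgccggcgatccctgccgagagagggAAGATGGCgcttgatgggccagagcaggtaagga

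In Psma4 and Psmd8 the match lay on the opposite strand, beginning at −47 and −7, and in Psma2 and Psmc5 on the gene's own strand at 31 and 4.

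The alpha ring, whose N-terminal tails close the gate of the core, had 3 of 7 genes higher and 1 lower, where 21.6% and 17.3% of all genes were, with a median log2 fold change of 0.29. Psma7, subunit alpha 4 (mm10 chromosome 2, 180036374 to 180042433), had 93.96, 113.3, 91.28 and 97.82 CPM in YY1 KO hearts, against 83.46, 81.38, 77.83 and 77.91 CPM in controls (log2 fold change 0.31 ± 0.09 SE, edgeR adjusted p = 0.0214). Psma2, subunit alpha 2 (mm10 chromosome 13, 14613240 to 14674236), had 81.67, 94.87, 84.72 and 78.56 CPM in YY1 KO hearts, against 78.10, 68.70, 67.78 and 63.68 CPM in controls (log2 fold change 0.29 ± 0.09 SE, edgeR adjusted p = 0.0351). Both separated the groups, in Psma2 by a narrow margin between YY1 KO 4 and control 1. Psma3, subunit alpha 7 (mm10 chromosome 12, 70974621 to 70996347), had 102.1, 122.2, 107.2 and 92.71 CPM in YY1 KO hearts, against 89.72, 87.29, 86.10 and 84.30 CPM in controls (log2 fold change 0.29 ± 0.09 SE, edgeR adjusted p = 0.0365). It too showed no overlap, with YY1 KO 2 the highest heart, as for Psma7 and Psma2. These 3 calls were not robust to the loss of a heart. Psma7 was lost without control 2, 3 or 4 (edgeR adjusted p 0.0528 to 0.0622), Psma2 without YY1 KO 1, 2 or 3 or control 2, 3 or 4 (0.0544 to 0.105), and Psma3 without any heart but YY1 KO 4 (0.0553 to 0.0951). The Psma2 and Psma3 calls were also lost with RLE size factors (edgeR adjusted p = 0.0690 and 0.0646) and with no filter (0.0537 and 0.0544), and that of Psma2 in DESeq2 (adjusted p = 0.0544). With the replicate block the calls of Psma7, Psma2 and Psma3 were all lost (edgeR adjusted p = 0.0548, 0.0708 and 0.0748). Within the Xist-positive hearts the log2 fold changes of Psma7, Psma2 and Psma3 were 0.25, 0.18 and 0.16, and within the Y-positive hearts 0.34, 0.38 and 0.39, with 0 of the 3 called in either (edgeR adjusted p 0.0767 to 0.522).

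Psma4, subunit alpha 3 of the same ring, was lower (mm10 chromosome 9, 54950790 to 54958030, plus strand). It had 60.72, 58.13, 57.36 and 70.89 CPM in YY1 KO hearts, against 87.12, 83.44, 83.76 and 75.89 CPM in controls. The groups did not overlap, and YY1 KO 4 and control 4 were nearest to each other. The log2 fold change was −0.42 ± 0.09 (SE, edgeR adjusted p = 0.00657), at −0.31 within the Xist-positive hearts (edgeR adjusted p = 0.281) and −0.55 within the Y-positive hearts (edgeR adjusted p = 0.0231). AY074887 overlaps it on the other strand, and with counts of the gene's own strand the log2 fold change was −0.43 ± 0.09 (SE, edgeR adjusted p = 0.00457). The remaining alpha genes, Psma1, Psma5 and Psma6, had log2 fold changes of 0.10, 0.10 and 0.29 and were not called. Of the non-catalytic beta subunits, Psmb1, Psmb2, Psmb3 and Psmb4, all 4 overlapped between the groups, with log2 fold changes of −0.01, −0.12, 0.15 and 0.05, and 0 were called by edgeR, DESeq2 or limma-voom, with 0 at an unadjusted p under 0.05.

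The 19S particle had 4 of 17 genes higher and 0 lower by edgeR, with a median log2 fold change of 0.19, so its 23.5% higher stood near the 21.6% of all genes. At an unadjusted p under 0.05 there were 8 higher and 1 lower, and DESeq2 and limma-voom each called 4 higher and 1 lower, Psmc5. Its lid, which holds the deubiquitinase Psmd14 and scaffold subunits, had 3 of 8 higher. Psmd13, the lid scaffold subunit Rpn9 in yeast terms (mm10 chromosome 7, 140881968 to 140898643), had 119.8, 155.5, 122.0 and 102.2 CPM in YY1 KO hearts, against 77.40, 74.26, 76.82 and 71.59 CPM in controls. Controls lay close together, and all YY1 KO hearts were higher, most of all YY1 KO 2. The mean in YY1 KO hearts was 166.5% of the control mean, with a log2 fold change of 0.74 ± 0.12 (SE, edgeR adjusted p = 0.00204), the highest of the 47 genes. Without YY1 KO 2 it was 0.61, within the Xist-positive hearts 0.57 (edgeR adjusted p = 0.121) and within the Y-positive hearts 0.86 (edgeR adjusted p = 0.0154). Sirt3 overlaps Psmd13 on the other strand, and counts of the gene's own strand gave 0.74.

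Psmd6, the lid scaffold subunit Rpn7 in yeast terms (mm10 chromosome 14, 14112174 to 14120984), had 91.76, 109.4, 101.6 and 91.46 CPM in YY1 KO hearts, against 82.54, 82.45, 78.90 and 78.23 CPM in controls. The groups did not overlap, with a log2 fold change of 0.29 ± 0.08 (SE, edgeR adjusted p = 0.0210). Psmd8, the lid subunit Rpn12 in yeast terms (mm10 chromosome 7, 29174188 to 29180701), had 174.9, 161.7, 126.3 and 141.7 CPM in YY1 KO hearts, against 97.68, 119.3, 128.3 and 118.1 CPM in controls. Here YY1 KO 3 lay below control 3, and the log2 fold change was 0.38 ± 0.13 (SE, edgeR adjusted p = 0.0372). The Psmd6 call was lost without YY1 KO 3 or control 2, 3 or 4 (edgeR adjusted p 0.0506 to 0.0618), and the Psmd8 call without YY1 KO 1 or 2 or control 1, 2 or 4 (0.0769 to 0.0939). Both calls were also lost with the replicate block (edgeR adjusted p = 0.0575 and 0.107). The Psmd8 log2 fold change was 0.55 within the Xist-positive hearts and 0.20 within the Y-positive hearts (edgeR adjusted p = 0.161 and 0.390), and its call was lost with a sex term (0.0516). That of Psmd6 was 0.19 within the Xist-positive hearts and 0.37 within the Y-positive hearts (edgeR adjusted p = 0.404 and 0.0780). The other lid genes, among them Psmd14 at 71.88 ± 2.60 CPM in YY1 KO hearts and 63.47 ± 3.26 CPM in controls (SD, n = 4 each), had log2 fold changes of −0.03 to 0.22 and were not called.

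Of the 6 ATPases that unfold substrates, Psmc1, whose tail takes part in opening the core gate (mm10 chromosome 12, 100110154 to 100123405), was called. It had 199.8, 283.0, 220.0 and 212.7 CPM in YY1 KO hearts, against 173.5, 175.9, 167.6 and 152.2 CPM in controls. No control reached a YY1 KO heart, and YY1 KO 2 stood above the rest. The log2 fold change was 0.45 ± 0.12 (SE, edgeR adjusted p = 0.0165), 0.33 without YY1 KO 2, and the call was lost without control 4 (edgeR adjusted p = 0.0516). It was 0.34 within the Xist-positive hearts and 0.53 within the Y-positive hearts, called in neither (edgeR adjusted p = 0.237 and 0.0662). Psmc5 lay on the other side, at 88.26, 104.7, 93.42 and 95.39 CPM in YY1 KO hearts, against 117.2, 108.3, 111.7 and 108.1 CPM in controls. Its groups did not overlap, yet with a log2 fold change of −0.22 ± 0.08 it missed the threshold in edgeR (adjusted p = 0.0510), while DESeq2 and limma-voom called it. Psmc2, Psmc3, Psmc4 and Psmc6 had log2 fold changes of 0.13, −0.07, 0.26 and 0.05 and were not called. The base scaffold subunits Psmd1 and Psmd2 and the ubiquitin receptor Psmd4 had log2 fold changes of 0.26, 0.19 and 0.39. By edgeR 0 of these 3 were called (adjusted p 0.0758 to 0.139) and 2 had an unadjusted p under 0.05, and 0 were called by DESeq2 or limma-voom, although their groups did not overlap.

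Over the 31 constitutive 20S and 19S genes, log2 fold changes were above 0 for 24, where 6876 of all 13506 genes were above 0. All YY1 KO hearts exceeded all controls for 15 of the 31, where 21.8% of all genes did so, and fell below them for 3, where 16.5% did. One heart stood out in this pattern: YY1 KO 2 was the highest of the 8 hearts for 24 of the 31 genes. The summed level of the 31 genes was 3873, 4656, 3923 and 3926 CPM in the YY1 KO hearts, against 3765, 3672, 3521 and 3496 CPM in the controls, so all YY1 KO hearts were above all controls. The median log2 deviation from the control mean was 0.09, 0.35, 0.13 and 0.13 in the YY1 KO hearts, against 0.07, 0.02, −0.03 and −0.04 in the controls. Without YY1 KO 2, 7 proteasome genes were called higher and 5 lower, where 18.7% and 14.9% of all genes were. The median log2 fold change over the 47 genes was then 0.11. The summed cardiomyocyte markers of YY1 KO 2, at 81070 CPM, were the highest of the YY1 KO hearts, and its summed fibroblast and leukocyte markers, at 4016 and 359 CPM, were the lowest of them. The part of cell composition in this pattern was not tested.

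**Figure D3:**
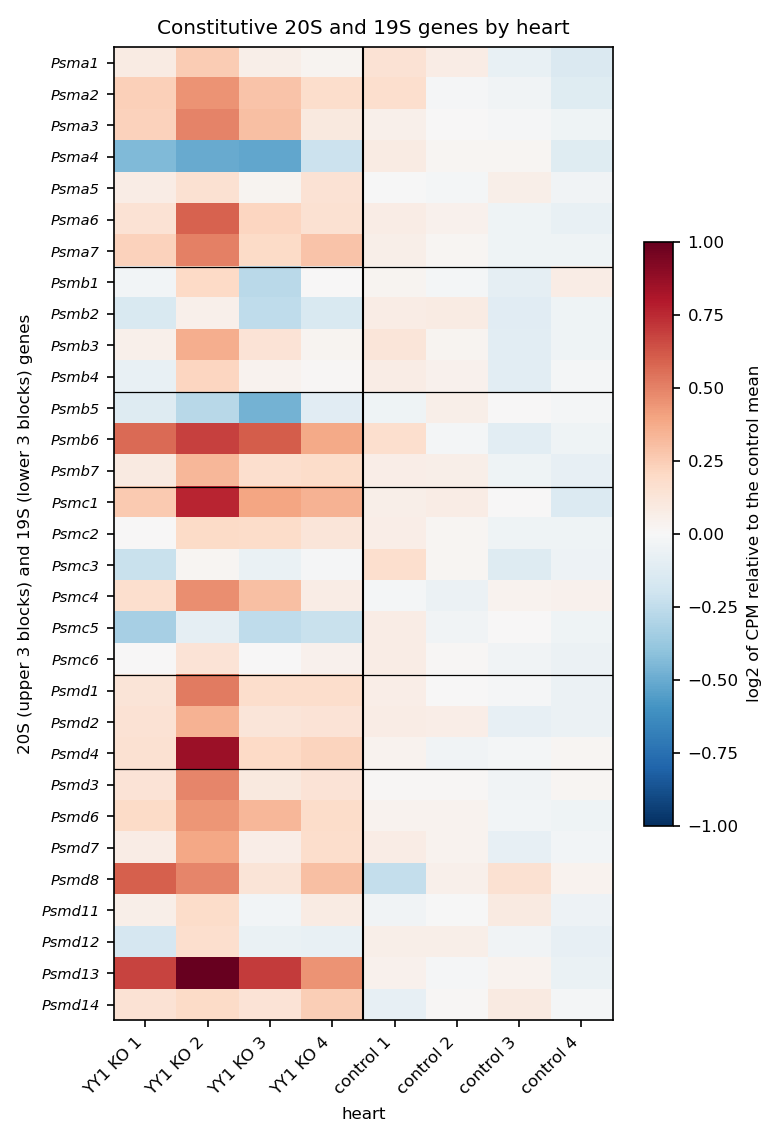
Log2 of CPM relative to the control mean for the 31 constitutive 20S and 19S genes (rows) in the 4 YY1 KO and 4 control hearts (columns), on a colour scale from −1 to 1. YY1 KO 2 is the highest heart for 24 genes, and Psma4, Psmb5 and Psmc5 are lower in all YY1 KO hearts than in any control.

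Of the 3 immunoproteasome genes, whose products are abundant in leukocytes, 1 was lower and 0 higher by edgeR, DESeq2 and limma-voom alike. At an unadjusted p under 0.05, 0 were higher. Of all genes tested by edgeR, 17.3% were lower and 21.6% higher. Psmb8, which replaces Psmb5 (mm10 chromosome 17, 34197721 to 34201454), had 14.01, 9.644, 13.32 and 15.65 CPM in YY1 KO hearts, against 18.24, 16.30, 21.10 and 22.96 CPM in controls. The groups did not overlap, with a log2 fold change of −0.58 ± 0.17 (SE, edgeR adjusted p = 0.0221). The call was lost without YY1 KO 3 or control 4 (edgeR adjusted p 0.0544 to 0.0587) and with library size alone (0.0609). It was −0.48 within the Xist-positive hearts and −0.72 within the Y-positive hearts, called in neither (edgeR adjusted p = 0.209 and 0.0617). Psmb9, which replaces Psmb6 (mm10 chromosome 17, 34181987 to 34187764), had 7.894, 4.278, 5.652 and 7.793 CPM in YY1 KO hearts, against 9.015, 8.045, 10.87 and 7.399 CPM in controls. The groups overlapped through control 4, and the gene was not called (log2 fold change −0.46 ± 0.22, edgeR adjusted p = 0.125). Its log2 fold change was −0.95 within the Y-positive hearts (edgeR adjusted p = 0.0484) and −0.07 within the Xist-positive hearts (edgeR adjusted p = 0.884), and its genotype-by-sex interaction was not called. Psmb10, which replaces Psmb7 (mm10 chromosome 8, 105935735 to 105938444), had 57.81, 38.85, 53.79 and 64.84 CPM in YY1 KO hearts, against 44.23, 47.35, 69.17 and 56.91 CPM in controls. The hearts of both groups interleaved, and the log2 fold change was −0.02 ± 0.18 (SE, edgeR adjusted p = 0.951), changing sign with library size alone, without YY1 KO 2 or control 3, and within the Xist-positive hearts.

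Per kilobase of the principal transcript, the immunoproteasome genes averaged 41.1 CPM for Psmb10, 8.08 for Psmb8 and 4.74 for Psmb9 in YY1 KO hearts, and 41.5, 12.1 and 6.53 CPM in controls. Psmb10 thus stood close to the constitutive Psmb5 in level and the other 2 well below all 3 constitutive catalytic genes. Set against the subunit each replaces, Psmb9 was at 0.0485, 0.0242, 0.0337 and 0.0545 of the CPM of Psmb6 in YY1 KO hearts, against 0.0731, 0.0740, 0.106 and 0.0693 in controls. All YY1 KO ratios were lower, with a log2 difference of −1.05 and an exact two-sided permutation p of 0.0286 (0.0571 adjusted over the 4 ratios). The ratio of Psmb8 to Psmb5 overlapped between the groups, with a log2 difference of −0.34 (exact permutation p = 0.114, adjusted 0.152). That of Psmb10 to Psmb7 also overlapped, with a log2 difference of −0.21 (exact permutation p = 0.486). The 16 leukocyte markers summed to 359 to 520 CPM in YY1 KO hearts, against 352 to 568 CPM in controls. By edgeR, DESeq2 and limma-voom 0 of the 11 tested leukocyte markers were called, where edgeR called 38.9% of all genes. In edgeR 0 of them had an unadjusted p under 0.05. The T and B cell genes Cd3e, Cd3d and Ms4a1 and the cytotoxic cell gene Nkg7 were too low to be tested. The neutrophil gene S100a8, also below the filter, had 7, 33, 79 and 23 reads in YY1 KO hearts, against 3, 5, 6 and 5 reads in controls, so each YY1 KO heart was above each control. The part of leukocyte numbers in the immunoproteasome values was not tested.

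**Figure D4:**
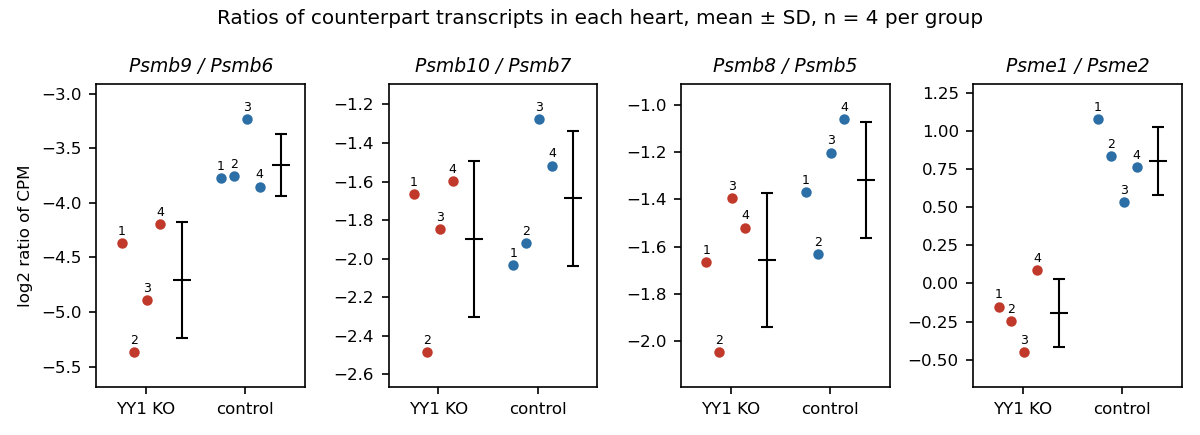
Log2 ratio of CPM in each heart for the 3 immunoproteasome genes over the constitutive genes they replace and for Psme1 over Psme2, with the mean ± SD of 4 hearts per group, YY1 KO left and control right. The groups separate for Psmb9 over Psmb6 and Psme1 over Psme2 and overlap for the other 2 ratios.

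The inhibitor and assembly genes were expressed at low levels, from 5.09 to 21.8 CPM per kilobase in YY1 KO hearts and 4.39 to 20.1 in controls. Psmf1 encodes PI31, which blocks the isolated core in the test tube and also acts as an adaptor for proteasome transport (mm10 chromosome 2, 151715812 to 151744186). It had 33.95, 42.51, 37.62 and 29.18 CPM in YY1 KO hearts, against 26.41, 22.21, 21.16 and 21.69 CPM in controls. The groups did not overlap, and the mean in YY1 KO hearts was 156.6% of the control mean (log2 fold change 0.65 ± 0.13 SE, edgeR adjusted p = 0.00465). It was 0.39 within the Xist-positive hearts (edgeR adjusted p = 0.247) and 0.87 within the Y-positive hearts (edgeR adjusted p = 0.0120). Psmg1, which pairs with Psmg2 to start the assembly of the alpha ring (mm10 chromosome 16, 95979933 to 95990960), had 13.89, 10.73, 13.45 and 15.84 CPM in YY1 KO hearts, against 22.33, 21.15, 19.39 and 18.47 CPM in controls. Each YY1 KO heart was below each control, with a log2 fold change of −0.59 ± 0.13 (SE, edgeR adjusted p = 0.00678), at −0.46 within the Xist-positive hearts (edgeR adjusted p = 0.212) and −0.76 within the Y-positive hearts (edgeR adjusted p = 0.0298). Its partner Psmg2 had 23.10 ± 1.35 CPM in YY1 KO hearts and 21.26 ± 1.79 CPM in controls (SD, n = 4 each) and was not called (log2 fold change 0.12, edgeR adjusted p = 0.329). The alpha ring chaperones Psmg3 and Psmg4 and the base chaperones Psmd5, Psmd9 and Psmd10 had log2 fold changes of 0.23, 0.25, 0.21, 0.26 and 0.04. By edgeR 0 of these 5 were called, as in DESeq2 and limma-voom.

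Psma8, the paralog of Psma7 that serves in testis (mm10 chromosome 18, 14706151 to 14762301), was barely present. It had 5, 4, 11 and 2 reads in YY1 KO hearts, against 11, 15, 19 and 14 reads in controls. In CPM these were 0.297, 0.272, 0.715 and 0.125 in YY1 KO hearts, against 0.775, 1.07, 1.20 and 0.885 in controls, with no overlap but few reads. All controls were above the filter's 0.648 CPM, but of the YY1 KO hearts only YY1 KO 3 was. The gene was thus tested through the group where it was higher. The log2 fold change of −1.47 ± 0.45 (SE, edgeR adjusted p = 0.0285) was lost as a call without YY1 KO 1, 2 or 4 or control 2, 3 or 4 (edgeR adjusted p 0.0509 to 0.0716). It was −1.93 within the Xist-positive hearts and −1.20 within the Y-positive hearts, called in neither (edgeR adjusted p = 0.146 and 0.157).

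A set of 6 genes kept their call and direction in every alternative tried except the fit within the Xist-positive hearts: Psma4, Psmb6, Psmd13, Psme1, Psmf1 and Psmg1. Within the 4 Xist-positive hearts, 0 of 13671 genes were called by edgeR at all, with 3451 genes and 5 proteasome genes at an unadjusted p under 0.05. Within the 4 Y-positive hearts, 3 proteasome genes were higher and 4 lower, where 12.7% and 11.8% of all genes were. The interaction of genotype with the sex read from these genes was called for 0 of 13506 genes by edgeR, with 702 genes and 1 proteasome gene at an unadjusted p under 0.05. With sex as a term, 9 proteasome genes were higher and 5 lower, where 20.5% and 16.4% of all genes were.

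Genes that act with the proteasome but fall outside the naming rule were counted from lists chosen with earlier results of these data known. Each count stands beside the 21.6% of all genes called higher and the 17.3% called lower. Among 17 tested partners of the proteasome (receptors, shuttles, deubiquitinases and maturation factors), 1 was higher and 2 lower, with a median log2 fold change of −0.01. Uchl5, the deubiquitinase that docks on the 19S receptor Adrm1, was at 46.57 ± 9.62 CPM in YY1 KO hearts and 18.84 ± 1.96 CPM in controls (SD, n = 4 each, log2 fold change 1.31, edgeR adjusted p = 0.000516). The shuttle genes Ubqln4 and Ubqln2 were the lower ones, with log2 fold changes of −0.45 and −0.30 (edgeR adjusted p = 0.00462 and 0.0184). Adrm1 itself and Pomp, the maturation factor of the core, had log2 fold changes of 0.20 and 0.12 and were not called.

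Among 6 genes that make or activate ubiquitin, 0 were higher (1 at an unadjusted p under 0.05, 0 by DESeq2 and limma-voom) and 2 lower by edgeR, Uba1, the main activating enzyme, and Rps27a, a ubiquitin fusion gene, with log2 fold changes of −0.37 and −0.35 (edgeR adjusted p = 0.0154 and 0.0380). The stress-induced polyubiquitin gene Ubb was at 49.73 ± 9.87 CPM in YY1 KO hearts and 39.60 ± 2.05 CPM in controls (SD, n = 4 each), and was not called (edgeR adjusted p = 0.0741). Among 11 genes around NRF1, 5 were higher and 1 lower, where 21.6% and 17.3% of all genes were, with a median log2 fold change of 0.26. Higher were Ngly1, the deglycosylase that activates NRF1 (0.62), the small MAF partners Mafg (0.70), Mafk (1.27) and Maff (0.98), and Keap1 (0.34), the repressor of its relative NRF2. Sel1l, of the ER degradation complex, was lower (−0.23). Nfe2l1 itself stood at 1043 ± 109.4 CPM in YY1 KO hearts and 869.5 ± 94.3 CPM in controls (SD, n = 4 each) and was not called (log2 fold change 0.26, edgeR adjusted p = 0.124).

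Among 16 genes of MHC class I peptide processing, which receives the peptides of the immunoproteasome, 0 were higher (0 also by DESeq2 and limma-voom, and 0 at an unadjusted p under 0.05) and 7 lower by edgeR, where 21.6% and 17.3% of all genes were, with a median log2 fold change of −0.41. Erap1, the ER peptide trimmer, was at 24.68 ± 4.13 CPM in YY1 KO hearts and 47.44 ± 3.85 CPM in controls (SD, n = 4 each, log2 fold change −0.94, edgeR adjusted p = 0.000876). The chaperones Canx (−0.39) and Calr (−0.57), which serve glycoproteins in general, the peptide transporter subunit Tap2 (−0.33), the regulator Irf1 (−0.54) and the class I genes H2-K1 (−0.50) and H2-D1 (−0.44) were also lower. The groups overlapped for H2-K1, H2-D1 and Irf1. Endothelial markers, given above, were lower in the same hearts, and their part in these values was not tested.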

How the data were processed

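RNA from 8 snap-frozen hearts was isolated with Trizol and sequenced as polyadenylated RNA, per the labels' protocols. The authors deposited raw, unnormalised read counts for each gene symbol and heart. Per the submitters' processing notes they used Trimmomatic and STAR with mm10. Their versions and gene annotation are not stated in the sources used here. Counts irrespective of strand were used, although 2.66 to 5.31% of stranded reads lay opposite to the gene, so the libraries kept strand. Reads outside genes or at several places, 33.0 to 38.9% per library, were left out. Genes with at least 10 reads, equal to 0.648 CPM, in 4 libraries (filterByExpr) were tested, 13506 in all.

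Groups came from the labels, which number separate mice. Libraries of a group differed by more than sampling noise (chi-square 14.5 to 96.1 per degree of freedom). Differences were tested with edgeR 4.0.16 (TMM, robust quasi-likelihood F test, with genotype alone in the model), with p-values adjusted by Benjamini-Hochberg over all genes. The ratios were tested with exact permutation over hearts and were chosen after the levels were known. Named with values per heart were the catalytic genes, their counterparts, Psme1 and Psme2, up to 4 called genes per role, and the 3 largest changes in each direction. The proteasome genes, lists and motifs were chosen with earlier results of these data known. Positions and lengths of the principal transcript are from GENCODE M21 (GRCm38), promoters from RefSeq. Counts were simulated for 13392 genes, with changes seeded in a small share of them. Recovery was 74.7% for 2-fold and 19.2% for 1.5-fold changes, with 3.1% of 96 calls false. In the hearts 5248 of 13506 genes were called, so the adjusted threshold was less strict there and these recoveries do not carry over. The power for small changes was not measured, so a missing call is not evidence of no change. Alternatives were other scalings, DESeq2 1.42.0, limma-voom 3.58.1, no filter, stranded counts, the replicate block, a sex term, each library left out, and, added after the data were seen, fits within sexes and a sex interaction. Analyses used R 4.3.3, Python 3.11.15, pandas 2.3.3, scipy 1.17.1 and matplotlib 3.10.9.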

Additional observations from a re-analysis of the deposited data

Results flagged for a closer look

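Within each genotype, the highest and lowest heart of each tested proteasome gene was set against the others. In 7 of 94 sets 1 heart lay apart by Dixon's criterion, where chance gives about 1 in 20 for a single set. The sets share the same hearts and are not independent, so 7 of 94 was not tested against that rate. YY1 KO 2 was above its group for 5 genes. Psmd4 stood at 232.8 CPM in it and at 142.8 to 149.6 CPM in the other YY1 KO hearts, Psmd1 at 258.2 CPM and at 196.6 to 204.1 CPM, and Psmd2 at 390.9 CPM and at 333.1 to 338.9 CPM. Psmd3 stood at 219.3 CPM in YY1 KO 2 and at 166.9 to 171.8 CPM in the others, and Psma6 at 156.0 CPM and at 115.0 to 120.8 CPM. Among controls, Psmd3 was lowest in control 3, at 152.2 CPM with the others at 157.3 to 158.0 CPM. Psmd10 was lowest in control 4, at 14.23 CPM with the others at 15.92 to 16.13 CPM. None of these 6 genes was called between genotypes by edgeR.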

How the results depend on the processing

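With library size alone the count of proteasome genes called higher (10) became 22, where 24.7% of all genes were higher. With the replicate block it became 4, where 16.4% were. It became 0 within the Xist-positive and 3 within the Y-positive hearts, where 0% and 12.7% of all genes were. With 1 heart left out it ranged from 3 to 11, and the share of all genes from 16.1% to 21.3%. The count called lower (6) became 0 within the Xist-positive hearts, where 0% of all genes were lower. With 1 heart left out it ranged from 3 to 6, and the share of all genes from 12.2% to 17.8%. Among the fits with 1 heart left out, the lowest counts in both directions were without control 4. With the other scalings, DESeq2, limma-voom, no filter, stranded counts or a sex term, 7 to 11 genes were higher and 5 to 8 lower. In these fits 15.4 to 21.5% of all genes were higher and 12.3 to 20.8% lower. Correlations of same-numbered deviations were −0.464, 0.337, −0.056 and 0.271, and such values of both signs do not settle whether mouse numbers pair the hearts. Same-numbered hearts were of the same kind by Xist and Y-linked reads, so the replicate block also takes up sex. With this block, 9 of the 16 calls were kept. The log2 fold change of Psmb10 changed sign to 0.048 with library size alone and 0.277 within the Xist-positive hearts, and ranged from −0.118 to 0.117 with 1 heart left out. The other 19 named genes kept their direction in every alternative tried. The cause of these shifts was not tested. At this depth Psma8 and Psmb11 rest on few reads.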
